A study of Mus musculus with 6 samples.

Results

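The 9 genes described here encode proteins with which macrophages sense, take up, store and export lipid, and they stand downstream of, or are themselves, the nuclear receptors LXR and PPARγ. They were chosen by name, with earlier results of these data known. They are the receptor genes Pparg and Nr1h3 (which encodes LXRα), the efflux transporter genes Abca1 and Abcg1, and the lipoprotein gene Apoe. The others are the fatty acid uptake and binding genes Cd36 and Fabp4, and the lipase gene Lpl with its inhibitor gene Angptl4. All 9 were on the array, with 13 probes among them, out of 27361 gene names, and all 9 were among the 19044 genes tested. Each gene was read from its brightest probe, and levels are log2 processed signals relative to the 75th percentile of the array.

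The study measured RNA of bone marrow-derived macrophages (BMDMs) from C57BL/6 mice on 6 one-colour Agilent arrays, 1 array for each of 2 genotypes in each of 3 polarization states. FoxO1 knockout (KO) cells were LysMcre FoxO1 Fl/Fl, in which Cre, expressed in myeloid cells from the lysozyme M locus, removes floxed Foxo1. WT cells were FoxO1 Fl/Fl without the Cre, so both genotypes carried the floxed allele, and loss of Foxo1 cannot be told apart from presence of the Cre. The macrophages were grown from marrow over 7 days with 10% L929-conditioned medium, which supplies M-CSF. M2 cells then had 10 ng/ml IL-4 and 10 ng/ml IL-13 for 24 hours, M1 cells had 100 ng/ml LPS and 20 ng/ml IFN-γ for 24 hours, and M0 cells had no addition. Separate animals behind the 6 RNA samples are not mentioned in the labels, so the p-values measure only the spread between these arrays, which may be technical.

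Foxo1 and cell type markers were read as a check of the labels. Foxo1 was lower on every KO array than on the WT array of the same state, by -2.65 in M2, -2.78 in M1 and -2.92 in M0 on the log2 scale. All 8 macrophage markers were well above background on all 6 arrays. The 7 M1 markers summed to 808 times the 75th percentile on KO M1 and 588 times on WT M1, and to at most 5.86 times elsewhere, and the 7 M2 markers to 641 times on KO M2 and 797 times on WT M2, and to at most 25.2 times elsewhere. The 75th percentile lay between 532 and 627 units of processed signal, 63.1% to 67.9% of spots were well above background, and no spot was saturated. Slide 1 held WT M1 and WT M0, and slide 2 held WT M2 and the 3 KO arrays, so KO and WT shared a slide only in M2. WT M0 stood apart through liver transcripts: all 18 liver markers were well above background there, with a summed level of 38.0 times the 75th percentile, against 14 markers and 1.66 times on KO M1 and 4 to 8 markers and 0.161 to 0.841 times on the other 4 arrays.

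LXRs are receptors for oxysterols that pair with RXR and switch on genes for cholesterol export, among them Abca1, Abcg1 and Apoe. PPARγ is a receptor for fatty acids and their derivatives, also pairs with RXR, is induced by IL-4 in macrophages, and drives genes for lipid uptake and storage such as Cd36 and Fabp4. LPL splits triglyceride from lipoproteins into fatty acids, and ANGPTL4, a product of a PPAR target gene, inhibits it.

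LXR with RXR binds repeats of the hexamer AGGTCA that are 4 bases apart (DR4), and PPAR with RXR binds repeats that are 1 base apart (DR1). Promoters of 250 bases before to 50 bases after the start were at hand for 5 of the 9 genes, from RefSeq on GRCm38.p6: Nr1h3, Abca1, Cd36, Pparg and Apoe. Abcg1, Fabp4, Lpl and Angptl4 had no entry. Both strands were searched for the DR4 letters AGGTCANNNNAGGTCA and the DR1 letters AGGTCANAGGTCA, and no exact match to either was in these windows. The closest match to DR1 lay in the Cd36 promoter, with 2 mismatches of 12 hexamer bases on the reverse strand, from -63 to -51 of the start, and 3.86% of 32851 promoters had a match with as few or fewer mismatches. The closest match to DR4 in the Abca1 promoter had 3 mismatches, also on the reverse strand, from -67 to -52, and 21.9% of the promoters had a match with as few or fewer. These promoters are shown because they are those of an LXR target and of a PPAR target whose levels are given below. Capitals mark the closest match, and a match is only a likeness of letters. Both are on the minus strand, at chr4:53159846-53160145 for Abca1 and chr5:17835847-17836146 for Cd36.
Abca1 promoter: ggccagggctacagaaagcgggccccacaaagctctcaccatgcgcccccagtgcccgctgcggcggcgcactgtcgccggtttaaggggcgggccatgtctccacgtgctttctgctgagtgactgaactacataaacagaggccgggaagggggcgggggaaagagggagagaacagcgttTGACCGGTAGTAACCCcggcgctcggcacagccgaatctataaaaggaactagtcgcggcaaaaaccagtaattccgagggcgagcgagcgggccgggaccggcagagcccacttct
Cd36 promoter: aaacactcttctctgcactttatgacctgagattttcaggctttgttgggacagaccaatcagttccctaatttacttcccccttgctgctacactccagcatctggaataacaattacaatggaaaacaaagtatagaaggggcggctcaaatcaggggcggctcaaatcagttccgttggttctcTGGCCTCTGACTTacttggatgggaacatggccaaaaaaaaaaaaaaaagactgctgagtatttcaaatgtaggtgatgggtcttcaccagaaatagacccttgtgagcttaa

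The array reads each gene with 60-base probes, whose coordinates in the files are on mm9. Gene models of that build were not used here, so no exon is named. Fabp4 had 3 probes, Lpl and Cd36 had 2 each and the other 6 genes had 1 each. Probes of Fabp4 and Lpl are shown because their values are used below to set the probes of 1 gene beside each other, and that of Apoe because this gene had the smallest range over the arrays. The brightest Fabp4 probe lies at chr3:10204533-10205262 on the minus strand, a span of 730 bases that is longer than the probe and so crosses an intron. The dimmest Fabp4 probe lies at chr3:10208442-10208501 on the minus strand. The dimmer Lpl probe lies at chr8:71425050-71425109 on the plus strand and the Apoe probe at chr7:20281732-20281791 on the minus strand.
Fabp4, brightest probe: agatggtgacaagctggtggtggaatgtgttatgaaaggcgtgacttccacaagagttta
Fabp4, dimmest probe: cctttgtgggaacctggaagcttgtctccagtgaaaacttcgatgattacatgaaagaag
Lpl, dimmer probe: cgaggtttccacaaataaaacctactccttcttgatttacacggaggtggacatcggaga
Apoe probe: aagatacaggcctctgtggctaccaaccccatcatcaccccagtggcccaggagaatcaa

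**Figure D1:**
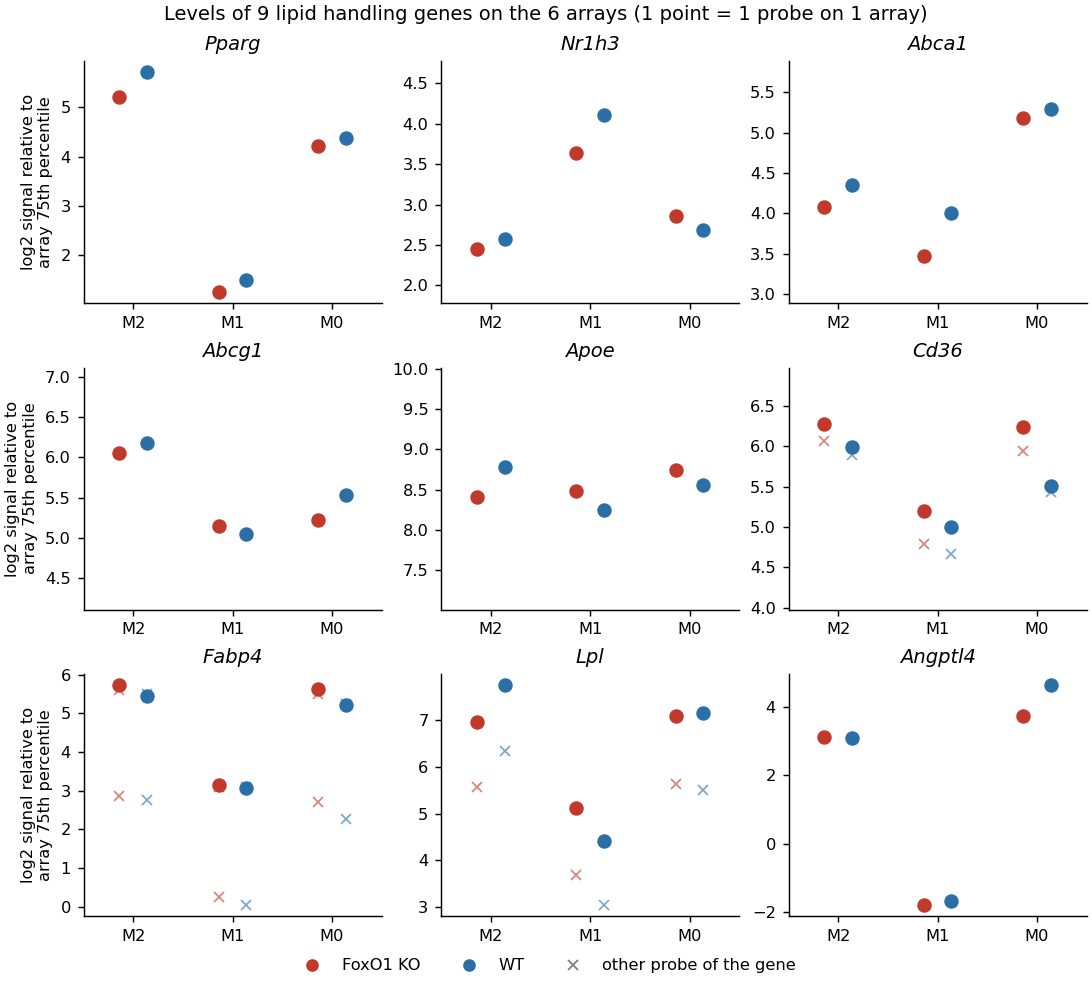
Level of each of the 9 genes on the 6 arrays, as log2 signal relative to the array's 75th percentile (y axis), by polarization state (x axis). Red points are FoxO1 KO and blue points WT, 1 array each, and crosses are other probes of the same gene. Pparg, Abca1, Abcg1, Cd36, Fabp4, Lpl and Angptl4 were lowest on both M1 arrays, and Nr1h3 was highest there.

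In M1 cells, given LPS and IFN-γ, 5 of the 9 genes were lower than in M0 cells (Angptl4, Pparg, Lpl, Fabp4 and Abca1) and 1 was higher (Nr1h3), over both genotypes. In M2 cells, given IL-4 and IL-13, 6 genes were higher than in M1 cells (Angptl4, Pparg, Lpl, Fabp4, Cd36 and Abcg1) and Nr1h3 was lower. No member passed between M2 and M0, nor between KO and WT. These calls are adjusted p-values under 0.05 from limma with Benjamini-Hochberg adjustment over all 19044 genes, in an additive model of genotype and state over the 6 arrays. Among all genes tested 25.6% passed for M1 against M0 (11.6% higher and 14% lower) and 25.4% for M2 against M1 (13.8% higher and 11.6% lower). For M2 against M0 0.084% passed, and for KO against WT 0%.

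The median difference of the 9 genes was -1.50 for M1 against M0, with 0.03 over all genes tested, and 1.03 for M2 against M1, with 0.18 over all. It was 0.17 for M2 against M0, with 0.08 over all, and -0.11 for KO against WT, with 0.09 over all. The scaling moves these baselines: the median of all genes for M1 against M0 was 0.26 with arrays centred on their median and -0.35 after normexp background correction, and for M2 against M1 it was -0.14 with median centring. With median centring 58.6% of the genes called for M1 against M0 were higher, against 45.2% on the 75th percentile scale, and for M2 against M1 36.0% were higher, against 54.3%. The direction of every member called here was the same under all 15 alternative settings.

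Each comparison of states rests on 2 arrays a side, and each shares arrays with the other comparisons. Without any 1 of the KO M1, WT M1, KO M0 and WT M0 arrays, 0 of the 19044 genes passed for M1 against M0, members included. Without KO M1 or WT M1, 0 genes passed for M2 against M1. The same differences within each genotype, 1 array against 1 array with no test, are therefore given for each member called. For M1 against M0 both genotypes' pairs lie within a slide. In the comparisons with M2 the KO pairs lie within a slide and the WT pairs do not. For M2 against M1 the KO and WT differences were 3.96 and 4.21 for Pparg, and -1.19 and -1.53 for Nr1h3. They were 0.91 and 1.12 for Abcg1, 1.08 and 0.99 for Cd36, and 2.59 and 2.37 for Fabp4.

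**Figure D2:**
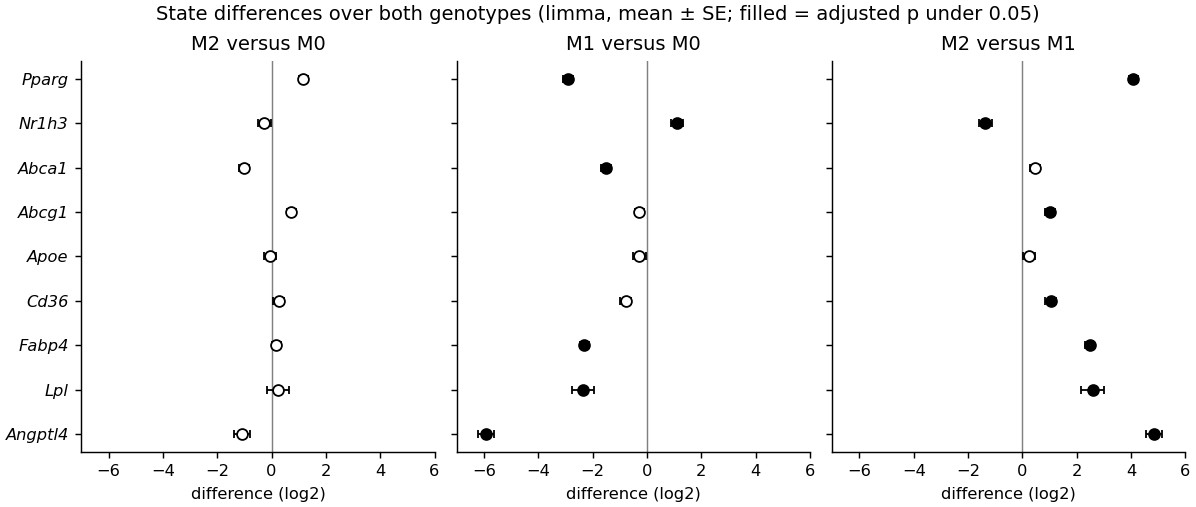
Fitted log2 difference (x axis) of each gene (y axis) for M2 against M0, M1 against M0 and M2 against M1, over both genotypes with SE bars from limma (6 arrays). Filled points have an adjusted p under 0.05; Angptl4 lies at -5.94 in the middle panel and 4.86 in the right one, and every point of the left panel is open.

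The receptor gene Pparg had levels of 5.21 in M2, 1.25 in M1 and 4.22 in M0 in KO cells, and of 5.72, 1.51 and 4.37 in the same states in WT cells. Both M2 arrays were the highest and both M1 arrays the lowest, and the 3 states did not overlap. In M1 the gene was lower than in M0 by a log2 difference of -2.91 ± 0.17 (SE), or 7.53-fold (limma adjusted p = 0.0071), with -2.97 in KO and -2.86 in WT cells. In M2 it was 16.9-fold higher than in M1 (4.08 ± 0.17, limma adjusted p = 0.0051). The M2 level was above the M0 level by 0.99 in KO and 1.35 in WT cells, but this did not pass (1.17 ± 0.17, limma adjusted p = 0.10). A fit with an intensity trend in the variance did call it (limma adjusted p = 0.0101). Over the 15 alternatives the adjusted p of the M2 against M0 difference ran from 0.0101 to 0.71.

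The Pparg probe was spotted 10 times on each array, which gives a measure of the technical spread within an array. Spot SDs ran from 0.04 to 0.10, and 9 spots remained on KO M1 after outliers. KO cells had the lower level in every state, by -0.51 in M2, -0.26 in M1 and -0.15 in M0. In M2 the KO spots ran from 5.11 to 5.40 and the WT spots from 5.61 to 5.82, without overlap. In M1 the KO spots (1.20 to 1.34) and the WT spots (1.43 to 1.66) did not overlap either. In M0 the KO spots (4.12 to 4.35) overlapped the WT spots (4.28 to 4.49). Spots on 1 array are not replicates of a genotype, and over the 3 states the difference did not pass (-0.31 ± 0.14, limma adjusted p = 0.49).

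**Figure D3:**
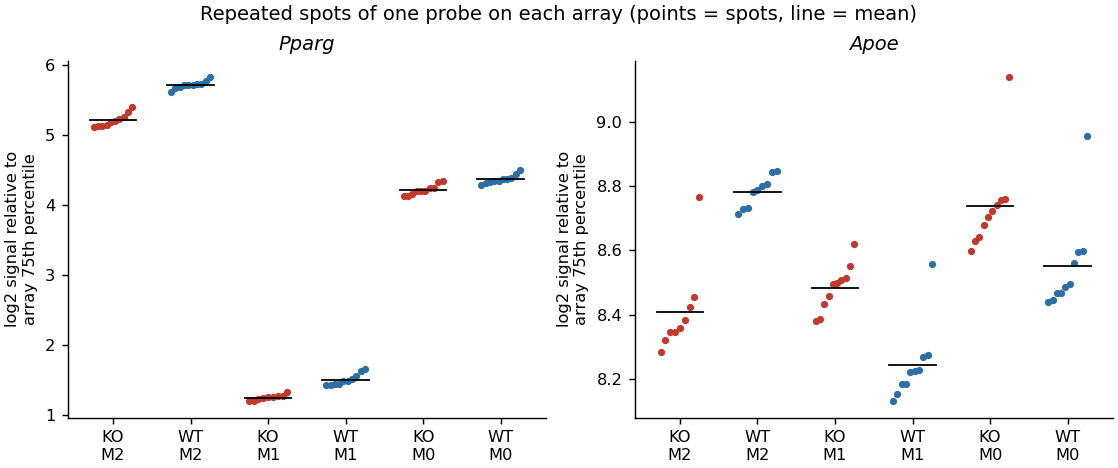
Each spot of the Pparg probe (left) and the Apoe probe (right) on the 6 arrays (x axis, KO left of WT in each state), as log2 signal relative to the array's 75th percentile (y axis); red is KO, blue is WT and lines are means. The Pparg spots of KO all lie below those of WT in M2 and in M1, and for Apoe 1 spot on several arrays lies well above the others.

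Nr1h3, the LXRα gene, ran the other way across states. Its levels were 2.45 in M2, 3.63 in M1 and 2.86 in M0 in KO cells, and 2.57, 4.11 and 2.68 in WT cells. Both M1 arrays were above the other 4, and the M2 arrays were the lowest of each genotype. The gene was 2.14-fold higher in M1 than in M0 (1.10 ± 0.22, limma adjusted p = 0.0388), by 0.77 in KO and 1.43 in WT cells, and 2.57-fold lower in M2 than in M1 (-1.36 ± 0.22, limma adjusted p = 0.0253). The M2 against M1 call was kept in 7 of 15 alternatives and missed with the slide as a block (-1.35, limma adjusted p = 0.0859). The M1 against M0 call was the least stable of the 6: it was kept in 4 of 15 alternatives and missed with the slide as a block (limma adjusted p = 0.0531) and with quantile normalization (0.78, limma adjusted p = 0.0773). KO minus WT was -0.13 in M2, -0.47 in M1 and 0.18 in M0.

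ABCA1 passes cholesterol to lipid-poor apolipoprotein. Its gene had levels of 4.08 in M2, 3.47 in M1 and 5.19 in M0 in KO cells, and of 4.35, 4.003 and 5.30 in WT cells. Both M0 arrays were the highest, and within each genotype M1 was the lowest. Abca1 was 2.84-fold lower in M1 than in M0 (-1.50 ± 0.18, limma adjusted p = 0.0151), with -1.71 in KO and -1.30 in WT cells. It was also lower in M2 than in M0 on the arrays of both genotypes, by -1.11 in KO and -0.95 in WT cells, and this did not pass (-1.03 ± 0.18, limma adjusted p = 0.12), except with an intensity trend (limma adjusted p = 0.0167; range over the alternatives 0.0167 to 0.69). KO cells had the lower level in each state, by -0.28 in M2, -0.53 in M1 and -0.11 in M0.

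Abcg1, whose product exports cholesterol to high-density lipoprotein, had another profile. Its levels were 6.05 in M2, 5.15 in M1 and 5.22 in M0 in KO cells, and 6.17, 5.05 and 5.53 in WT cells. Both M2 arrays were the highest, and the M1 and M0 arrays of KO cells differed by -0.08. The gene was 2.02-fold higher in M2 than in M1 (1.01 ± 0.18, limma adjusted p = 0.0300), a call kept in 6 of 15 alternatives and missed with the slide as a block (limma adjusted p = 0.0928). The M1 against M0 difference of -0.28 ± 0.18 did not pass (limma adjusted p = 0.33), and neither did the M2 against M0 difference of 0.73 ± 0.18 (limma adjusted p = 0.17). KO minus WT was -0.12 in M2, 0.09 in M1 and -0.31 in M0.

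Apoe, the gene of apolipoprotein E, varied least of the 9. Its levels were 8.41 in M2, 8.48 in M1 and 8.74 in M0 in KO cells, and 8.78, 8.24 and 8.55 in WT cells, a range of 0.54 over the 6 arrays. The states overlapped, with the highest and the lowest level both in WT cells. No comparison passed: the fitted differences were -0.05 ± 0.23 for M2 against M0, -0.28 ± 0.23 for M1 against M0 and 0.23 ± 0.23 for M2 against M1, with limma adjusted p-values of 0.91, 0.42 and 0.49. The probe's 9 to 10 spots per array had SDs of 0.05 to 0.15, and KO minus WT was -0.37 in M2, 0.24 in M1 and 0.19 in M0, with a change of sign between states.

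Apoe is also a liver transcript, and WT M0 carried liver transcripts. The Apoe level on WT M0 was 0.19 below that on KO M0. A pair of other apolipoprotein genes that liver expresses and LXR regulates, singled out after their values were seen, differed more. Apoc1 was at 0.52 in KO M0 and 3.81 in WT M0, and its KO minus WT difference was -1.78 in M2, -0.62 in M1 and -3.29 in M0. Apoc2 was at 3.78 in KO M0 and 5.15 in WT M0, and its KO minus WT difference was -0.35 in M2, -1.92 in M1 and -1.38 in M0. The largest difference was in M0 for Apoc1 and in M1 for Apoc2. The liver sum was 38.0 times the 75th percentile on WT M0 and 0.161 times on WT M1. The part of liver RNA in any of these levels was not tested.

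CD36 takes up fatty acids and oxidised lipoprotein. Its brighter probe gave 6.28 in M2, 5.20 in M1 and 6.24 in M0 in KO cells, and 5.99, 4.998 and 5.51 in WT cells. Both M1 arrays were the lowest, and KO was above WT in every state. The gene was 2.05-fold higher in M2 than in M1 (1.03 ± 0.20, limma adjusted p = 0.0376), a call kept in 5 of 15 alternatives and missed with the slide as a block (limma adjusted p = 0.12). For M1 against M0 the difference of -0.78 ± 0.20 did not pass (limma adjusted p = 0.0665). It passed with quantile normalization, where it was -1.23 (limma adjusted p = 0.0277), and with 4 other settings. Over all 15 settings the adjusted p ran from 0.0154 to 0.35.

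Cd36 also had the largest mean KO minus WT difference of the 9, with KO higher by 0.29 in M2, 0.20 in M1 and 0.73 in M0. The other probe gave 0.16, 0.11 and 0.51. The difference did not pass (0.41 ± 0.17, limma adjusted p = 0.46). KO and WT were on different slides in M0 and M1, which gave the largest and the smallest value, and on 1 slide in M2. The part of the slide in this difference was not tested.

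FABP4 carries fatty acids in the cytosol of macrophages and fat cells. Its brightest probe gave 5.73 in M2, 3.14 in M1 and 5.62 in M0 in KO cells, and 5.44, 3.07 and 5.21 in WT cells. The M1 arrays lay more than 2 log2 units below the other 4, and M2 and M0 overlapped. Fabp4 was 4.94-fold lower in M1 than in M0 (-2.31 ± 0.17, limma adjusted p = 0.0084) and 5.58-fold higher in M2 than in M1 (2.48 ± 0.17, limma adjusted p = 0.0066). The dimmest probe, printed above, gave M1 minus M0 differences of -2.47 in KO and -2.22 in WT cells, where the brightest gave -2.47 and -2.14. KO was above WT by 0.29 in M2, 0.07 in M1 and 0.41 in M0, and this did not pass (0.26 ± 0.14, limma adjusted p = 0.52).

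Lpl was the gene whose genotype difference varied most between states. Its brighter probe gave 6.95 in M2, 5.13 in M1 and 7.09 in M0 in KO cells, and 7.76, 4.40 and 7.16 in WT cells. The M1 arrays were the lowest in both genotypes, and the spread between states was wider in WT than in KO cells. Over all genes well above background on both arrays, M2 minus M0 also spread more widely in WT cells. Its 5th to 95th percentiles were -1.22 to 1.68 in WT and -0.83 to 0.81 in KO cells. For M2 minus M1 they were -1.67 to 2.09 in WT and -1.81 to 1.64 in KO cells. WT M2 lies on another slide than WT M1 and WT M0, and the part of the slide was not tested. Lpl was 5.12-fold lower in M1 than in M0 (-2.36 ± 0.42, limma adjusted p = 0.0298), with -1.96 in KO and -2.76 in WT cells. It was 6.01-fold higher in M2 than in M1 (2.59 ± 0.42, limma adjusted p = 0.0244), with 1.82 in KO and 3.35 in WT cells. The M2 against M1 call was missed with the slide as a block (2.02, limma adjusted p = 0.0593).

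KO minus WT for Lpl was -0.80 in M2, 0.73 in M1 and -0.07 in M0. The dimmer probe, printed above, gave -0.77, 0.65 and 0.14. The fitted mean over states was therefore close to 0 (-0.05 ± 0.34, limma adjusted p = 0.96), with the widest SE of the 9 genes. With 1 array per genotype and state the difference between states in this contrast was not tested. The M2 pair shared a slide, and the M1 pair did not.

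Angptl4 had the widest range, 6.46 log2 units over the 6 arrays. Its processed signal was 5485 units in M2, 166 in M1 and 8000.05 in M0 in KO cells, and 4721, 184 and 13392 units in WT cells. As levels these were 3.13, -1.81 and 3.74 in KO cells, and 3.10, -1.68 and 4.65 in WT cells. Both M1 arrays were far below the other 4 but still well above background, and both M0 arrays were the highest. The gene was 61.3-fold lower in M1 than in M0 (-5.94 ± 0.30, limma adjusted p = 0.0068), with -5.54 in KO and -6.33 in WT cells, and 29.0-fold higher in M2 than in M1 (4.86 ± 0.30, limma adjusted p = 0.0060), with 4.94 and 4.78.

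The WT M0 array, which held the liver transcripts, also held the highest Angptl4 level. The KO pair of M1 and M0, which does not involve that array, gave -5.54. M2 was below M0 by -0.61 in KO and -1.55 in WT cells, and this did not pass (-1.08 ± 0.30, limma adjusted p = 0.20). KO minus WT was 0.03 in M2, where the 2 arrays share a slide, and -0.13 in M1 and -0.92 in M0, where they do not. The part of liver RNA or of the slide in these differences was not tested.

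**Figure D4:**
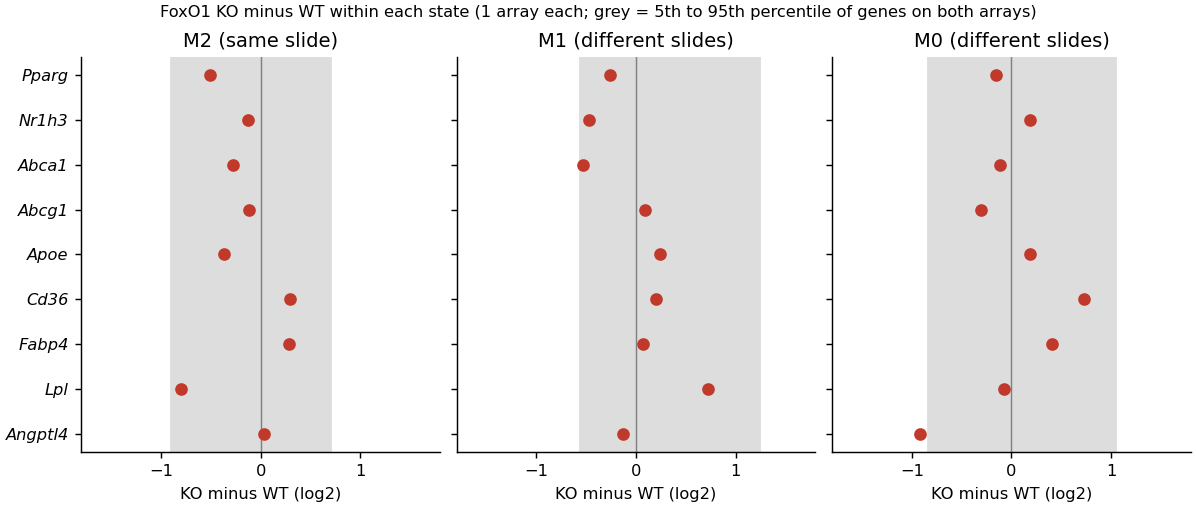
KO minus WT log2 difference (x axis) of each gene (y axis) in M2, M1 and M0, 1 array against 1 array with no error. Grey bands run from the 5th to the 95th percentile of all tested genes well above background on both arrays; in M0 Angptl4, at -0.92, lies outside the band, and Lpl lies at -0.80 in M2 and 0.73 in M1.

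None of the 9 genes differed by 2-fold or more between KO and WT in any state, where 6.24% of the tested genes well above background on both arrays did in M2, 10.3% in M1 and 9.37% in M0. Pparg and Abca1 were lower in KO in all 3 states, and Cd36 and Fabp4 were higher in all 3. The other 5 genes changed sign. By limma 0 of the 19044 genes passed for KO against WT, with 2157 genes at an unadjusted p under 0.05, and with an intensity trend 32 genes passed, 0 of them members. Within each genotype the states differed more. For M1 against M0, 0 members were at least 2-fold higher and 6 lower in KO cells, where 12.1% of genes were higher and 12% lower. In WT cells 1 was higher and 5 were lower, where 10.3% of genes were higher and 13.8% lower. For M2 against M0, 0 were higher and 1 was lower (Abca1) in KO cells, where 3.59% of genes were higher and 3.44% lower. In WT cells 1 was higher (Pparg) and 1 lower (Angptl4), where 14.3% of genes were higher and 7.15% lower. For M2 against M1, 5 were higher and 1 was lower (Nr1h3) in KO cells, where 11.6% of genes were higher and 11.8% lower. In WT cells 5 were higher and 1 was lower (Nr1h3), where 20.5% of genes were higher and 10.6% lower. The WT M2 array lies on another slide than WT M1 and WT M0, while the KO arrays share a slide, and WT M0 held the liver transcripts. The part of the slide or of liver RNA in the different shares of WT and KO cells was not tested.

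Partner and related receptors and coregulators, the proteins with which LXR and PPAR act on their targets, came next. Of 13 such genes, 12 were tested, since the Ppara probe was never well above background. The counts of this list and of those below stand beside these shares of all genes tested. For M1 against M0 11.6% passed as higher and 14% as lower, and for M2 against M1 13.8% and 11.6%. For M2 against M0 0.084% passed, and for KO against WT 0%. The medians over all genes were 0.03 for M1 against M0, 0.18 for M2 against M1, 0.08 for M2 against M0 and 0.09 for KO against WT. For M1 against M0 3 passed as higher and 1 as lower, with a list median of 0.23. The higher ones were Ppargc1b, the coactivator PGC-1β (1.62 ± 0.34, limma adjusted p = 0.0419), Nr1h2, the LXRβ gene (0.73), and Ppard, the PPARδ gene (0.70), and the lower one was Rxrb (-0.74), a gene of the shared partner RXR. For M2 against M1 Ppargc1b was higher (1.57 ± 0.34, limma adjusted p = 0.0452) and Nr1h2 lower (-0.73 ± 0.15, limma adjusted p = 0.0426), with a list median of 0.14. Nr1h2 had the signs of Nr1h3 in both comparisons, which share the M1 arrays. None passed for M2 against M0, where the list median was 0.22, or for KO against WT, where it was -0.11.

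Of 13 other LXR target genes, all tested, 4 were lower in M1 than in M0 and none passed as higher, with a list median of -1.08. Among all genes tested 14% passed as lower and 11.6% as higher, with a median of 0.03. The 3 lowest of these were Arl4c (-2.39 ± 0.17, limma adjusted p = 0.0079), Cd5l (-1.91 ± 0.27, limma adjusted p = 0.0205) and Mylip, which encodes a ubiquitin ligase (-1.09 ± 0.22, limma adjusted p = 0.0375). Pltp, the phospholipid transfer protein gene, was the fourth (-1.08). For M2 against M1 Arl4c (2.85) and Scd2 (1.48), a fatty acid desaturase gene, were higher and Mertk (-0.84), a receptor for dying cells, was lower, with a list median of 0.21. Srebf1, another well known LXR target, had a difference of -0.00098 for M1 against M0, where its levels were 3.33 in M1 and 3.52 in M0 in KO cells and 3.56 and 3.38 in WT cells. None passed for M2 against M0, where the list median was -0.53, or for KO against WT, where it was -0.27. Pltp was lower in KO by -0.89 in M2, -0.90 in M1 and -0.94 in M0, which did not pass (-0.91 ± 0.12, limma adjusted p = 0.35). Cd5l had the larger genotype difference and the other sign, with KO above WT by 3.06 in M2, 2.48 in M1 and 2.17 in M0, and did not pass either (2.57 ± 0.22, limma adjusted p = 0.30).

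Of 13 other PPAR target genes, 12 were tested. For M1 against M0 6 passed as lower and 1 as higher, with a list median of -0.72, where 14% of all genes tested passed as lower and 11.6% as higher. The lower ones were led by Pdk4 (-2.65 ± 0.37, limma adjusted p = 0.0193), a kinase that restrains glucose oxidation, the fatty acid binding gene Fabp5 (-1.50 ± 0.22, limma adjusted p = 0.0219) and Acadm (-1.14 ± 0.20, limma adjusted p = 0.0301), a gene of fatty acid oxidation. The one that rose was Hilpda (2.45 ± 0.20, limma adjusted p = 0.0093), a lipid droplet protein that inhibits lipolysis and is also induced by hypoxia. For M2 against M1 6 passed as higher, led by the mitochondrial carrier gene Ucp2 (1.56), Acadm (1.41) and Acaa2 (1.38), and Hilpda was lower (-2.99), with a list median of 0.77. Plin2, the lipid droplet coat gene, differed by -0.36 for M1 against M0 and did not pass (limma adjusted p = 0.18). None passed for M2 against M0 (median 0.02) or KO against WT (median 0.09).

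Of 15 genes for lipoprotein uptake, cholesterol storage and lipolysis, all tested, 3 were higher and 5 lower in M1 than in M0, with a list median of -0.23. The shares of all genes tested were 11.6% higher and 14% lower. The scavenger receptor gene Msr1 (2.35 ± 0.16, limma adjusted p = 0.0079) and the fatty acid binding gene Fabp3 (1.72) were among the higher ones. Mgll, whose product splits monoglycerides, was lower by -3.40 ± 0.16 (limma adjusted p = 0.0068), followed by the lipoprotein receptor gene Vldlr (-1.88) and Nceh1 (-1.22), a cholesteryl ester hydrolase gene. For M2 against M1 6 were higher, led by Mgll (3.49), Olr1 (3.20), a receptor for oxidised LDL, and Npc1 (1.23), a cholesterol exporter of lysosomes. Fabp3 (-3.19) and Msr1 (-2.37) were lower, and the list median was 0.43. None passed for M2 against M0 (median -0.13) or KO against WT (median 0.12).

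**Figure D5:**
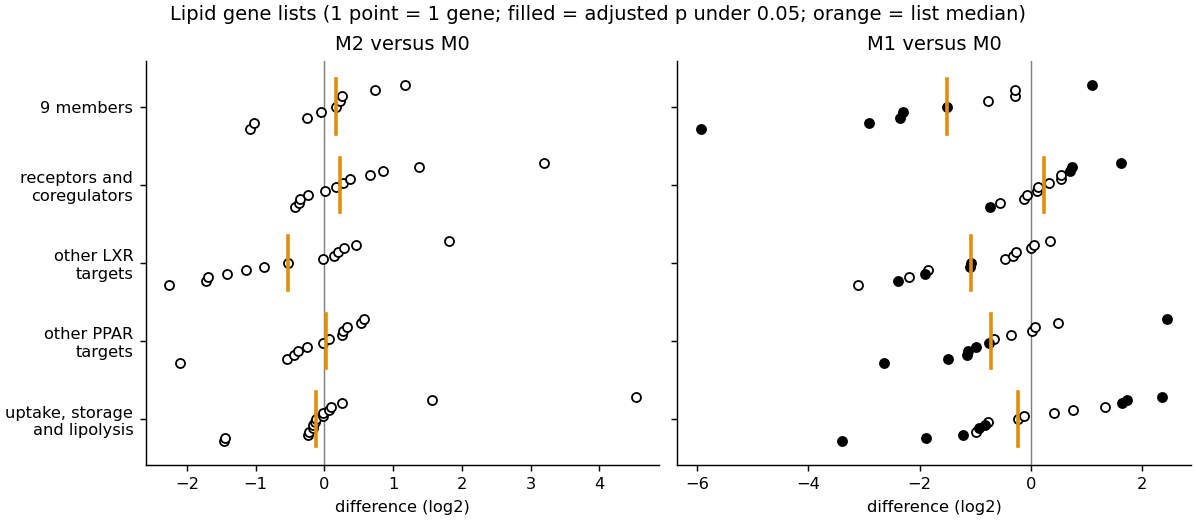
Fitted log2 difference (x axis) of every tested gene of 5 lists (y axis) for M2 against M0 (left) and M1 against M0 (right). Filled points have an adjusted p under 0.05 in limma and orange lines are list medians; on the right the medians run from -1.50 for the 9 members to 0.23 for the receptors and coregulators, and on the left no point is filled.

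Fabp4 and Lpl are strongly expressed in fat cells too, so fat cell markers were read beside them. Of 8 adipocyte markers 2 to 6 were well above background on an array, with summed levels of 0.609 in M2, 0.303 in M1 and 0.288 in M0 in KO cells and of 0.916, 0.158 and 0.213 in WT cells, in multiples of the 75th percentile. Cfd and Lep were never well above background, and Adipoq was so only on both M2 arrays. Endothelial markers, of another cell type that holds Cd36 and binds LPL, summed to 0.946 to 2.30 on the 6 arrays, and Tie1 was never well above background. Monocyte markers summed to 0.563 in M2, 71.4 in M1 and 1.13 in M0 in KO cells and to 1.89, 184 and 8.25 in WT cells. Neutrophil markers summed to 5.20, 3.68 and 13.4 in KO cells and to 25.2, 3.57 and 80.1 in WT cells. In bulk RNA fewer cells of a type and less RNA per cell cannot be told apart, and the part of these cell types in the members' differences was not tested.

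The likeness of profiles over the 6 arrays was described by Pearson's r, with no test, over 15876 other genes well above background on all 6 arrays; the arrays share states, so many genes correlate. For Pparg the 3 most alike were Ltbp3, Ank and St3gal4 (r of 0.999, 0.998 and 0.998), and 705 genes had an r over 0.95, among them Fabp4 (0.954) and Lpl (0.951). For Angptl4 they were Dnajb14, Wdr11 and Ctsf, with 786 genes over 0.95. For Abca1 they were Abcc3, Ulk2 and Gm17066, with 160 genes over 0.95, and the r of Abca1 with Abcg1 was 0.06. For Abcg1 they were Srl, Ear10 and AK035121, for Cd36 Zrsr1, Impdh2 and Arl13b, for Fabp4 Gusb, Sf3b3 and Zbtb8a, and for Lpl they included Trim2 and Cd24a. Pearson's r takes no account of the size of the changes. Sf3b3 ranged over 0.39 log2 units, against 2.66 for Fabp4, and Arl13b over 0.63, against 1.28 for Cd36. Ear10 ranged more widely, over 8.88, against 1.12 for Abcg1. Nr1h3 was most like Mvb12a, Pcgf1 and Slc4a1ap and ran against the other 8 members, with r between -0.51 (Abca1) and -0.96 (Lpl). Apoe was most like Helb, Nptn and LOC101055777, with 10 genes over 0.95.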

How the data were processed

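The authors deposited each array's scanner output. Its spot intensity values were made by Agilent Feature Extraction 10.7.3.1 and, per the file headers, were corrected for background and spatial trend but not scaled between arrays. The authors' deposited log2 value table, an alternative here, matched the scanner values in scale and direction (r of at least 0.99886 with its own array, column medians 5.39 to 5.41), and its centring is not stated. Control and outlier spots (79 to 164 of 43379) were left out, spots of a probe were averaged, and the array's 75th percentile was subtracted on the log2 scale. Genes whose brightest probe exceeded background well on 2 or more of 6 arrays were tested. Limma 3.58.1 in R 4.3.3 fitted genotype and state as additive terms (2 residual df), and was tested on simulated data. Genotype differences that vary between states therefore enter its residual. Differences of 1 array against 1 array have no test. Of each list, up to 3 genes in each direction are named by size among those called. Some genes of the lists are not reported here by name. The 15 alternatives were other scalings and background corrections, probe and filter rules, the slide as a block, an intensity trend, and leaving out each array in turn. The members and lists were chosen with earlier results of these data known. The number of arrays limits the precision.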

Additional observations from a re-analysis of the deposited data

Results flagged for a closer look

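KO minus WT for Lpl pointed in opposite directions in M2 and M1 by more than 0.5 on the log2 scale in each. It was -0.80 in M2 and 0.73 in M1, each 1 array against 1 array, and the difference was not tested. The other Lpl probe gave -0.77 and 0.65.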

How the results depend on the processing

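No paired analysis was possible because each genotype and state has 1 array, so that the groups share only 1 replicate number. For M1 against M0, 0 members passed as higher, against 1, with quantile normalization, normexp correction, the authors' value table, no filter or the slide as a block, and 0 without any 1 array; members lower ranged from 0 to 5 without 1 array. For M2 against M1, 3 members passed as higher, against 6, with the slide as a block (0 to 4 without 1 array), and 0 as lower, against 1, with normexp correction or the slide as a block (0 without any 1 array). For M2 against M0, 2 members were higher and 1 lower with an intensity trend. Of KO M0 and WT M0, 1 member was at least 2-fold apart with quantile normalization, normexp correction or the authors' table, and of KO M2 and KO M0, 2 were with normexp correction. Signs turned only for differences that did not pass. For Apoe, M2 against M0 was 0.19 with normexp correction (-0.34 to 0.24 without 1 array). M2 against M1 was -0.094 with median centring and -0.061 with the slide as a block (-0.061 to 0.52 without 1 array). KO against WT was -0.0696 with median centring, -0.0702 with quantile normalization, -0.12 with normexp, -0.0566 with the authors' table and -0.37 with the slide as a block (-0.093 to 0.21 without 1 array). M2 against M0 was -0.017 for Fabp4 with the authors' table, and for Lpl -0.34 with the slide as a block (-0.34 to 0.80 without 1 array). KO against WT without 1 array ran from -0.30 to 0.027 for Nr1h3 and from -0.44 to 0.33 for Lpl, and was 0.030 for Angptl4 with the slide as a block. Over all genes, 16 were called for M2 against M0, against 518 with median centring, 147 with quantile normalization, 153 with the authors' table, 275 when all 6 arrays had to exceed background well, 1083 with an intensity trend and 0 with normexp, no filter, the slide as a block or without 1 array. For M1 against M0 4873 were called and 1292 with normexp; for M2 against M1 4831, 1360 with normexp, 2229 with the slide as a block and 1253 without KO M0 or WT M0. With the slide as a block, KO against WT rests on the M2 pair, and each comparison of states equals the fit without WT M2. For states these alternatives are therefore not separate checks. The cause of these shifts was not tested.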
